A study of Vulpes vulpes with 8 samples.

Results

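Hemidesmosomes are the junctions that fix the basal cells of a stratified epithelium to the basement membrane below. In their core, the integrin of ITGA6 and ITGB4 and the transmembrane collagen XVII (COL17A1) cross the basal cell membrane. Inside the cell, plectin (PLEC) and the epithelial form of dystonin (DST) tie them to keratin filaments. Outside, they hold an epithelial laminin that contains the LAMA3 and LAMB3 chains, and collagen VII (COL7A1) forms the anchoring fibrils that run from the basement membrane into the connective tissue. In the gum, hemidesmosomes also attach the junctional epithelium to the tooth surface. These 8 genes were chosen by symbol, and all probe sets to which the array annotation gives 1 of these symbols alone were taken. They had 27 probe sets among 42924 that were not controls, out of 15115 genes named on the array.

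The samples were gingiva of red foxes (Vulpes vulpes) affected by hereditary hyperplastic gingivitis (HHG), an inherited disease in which the gum overgrows, or unaffected by it, read on Affymetrix Canine 2 arrays with dog probe sets. Affected foxes were 19, 55 and 107 (males) and 381 and 757 (females), which were called affected on early signs of the disease at the tooth margin. Unaffected foxes were 86 and 97 (males) and 402 (female). Each array is 1 fox, and p-values measure the spread between these 8 animals. Pieces came from euthanised or from live anaesthetised foxes in different seasons. The labels give neither the season nor the age of each fox, so an effect of season could not be tested.

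Values are the deposited signals in arbitrary linear units, whose trimmed mean was 150 on each array. Differences are limma estimates of affected minus unaffected on log2(signal + 16) with their standard error, and p-values were adjusted over all 25754 probe sets tested. Probe sets of a gene are numbered by mean signal, the brightest as probe set 1. Signals of different probe sets are not comparable as levels of RNA. Background on each array, read from 42 bacterial probe sets, lay between 7.42 and 16.6. The arrays fall into sets by the signal of the 5' actin probe set, a readout of RNA or cDNA integrity. Foxes 107 and 757 (affected) and 86 and 97 (unaffected) read 7831 to 8868, and foxes 19, 55 and 381 (affected) and 402 (unaffected) read 1354 to 2336. Beside each series of values below, the order of foxes is 19, 55, 107, 381 and 757 among affected and 86, 97 and 402 among unaffected animals.

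No anchoring gene passed the test between affected and unaffected gingiva. Of the 27 probe sets, 19 were bright enough to be tested, with at least 1 for each of the 8 genes. Of these 19, 10 had a higher and 9 a lower mean in affected foxes, and the differences ran from -0.19 (a DST probe set) to 0.28 (a LAMB3 probe set). Their median was 0.037, against -0.037 over all probe sets tested, of which 43.5% had a higher and 56.5% a lower mean. The adjusted p of limma was 0.9999 for each of the 19. Adjusted p was under 0.05 for 0 members and for 0% of all probe sets, and unadjusted p was under 0.05 for 0 members and for 2.69% of all probe sets. The groups overlapped in all 19, while 2.43% of all probe sets had groups that did not overlap. The smallest unadjusted p of a member was 0.279.

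The 95% interval of the difference lay within 1 on the log2 scale, a fold of 2, in either direction for 16 of the 19. For the other 3 a larger difference was within the interval. The median SD over the 8 foxes was 0.44 on the log2 scale for the 19 members, against 0.31 over all probe sets tested. The median standard error of a group difference was 0.29 for members and 0.23 for all. In bulk tissue, fewer cells of a type and less RNA per cell cannot be told apart.

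**Figure D1:**
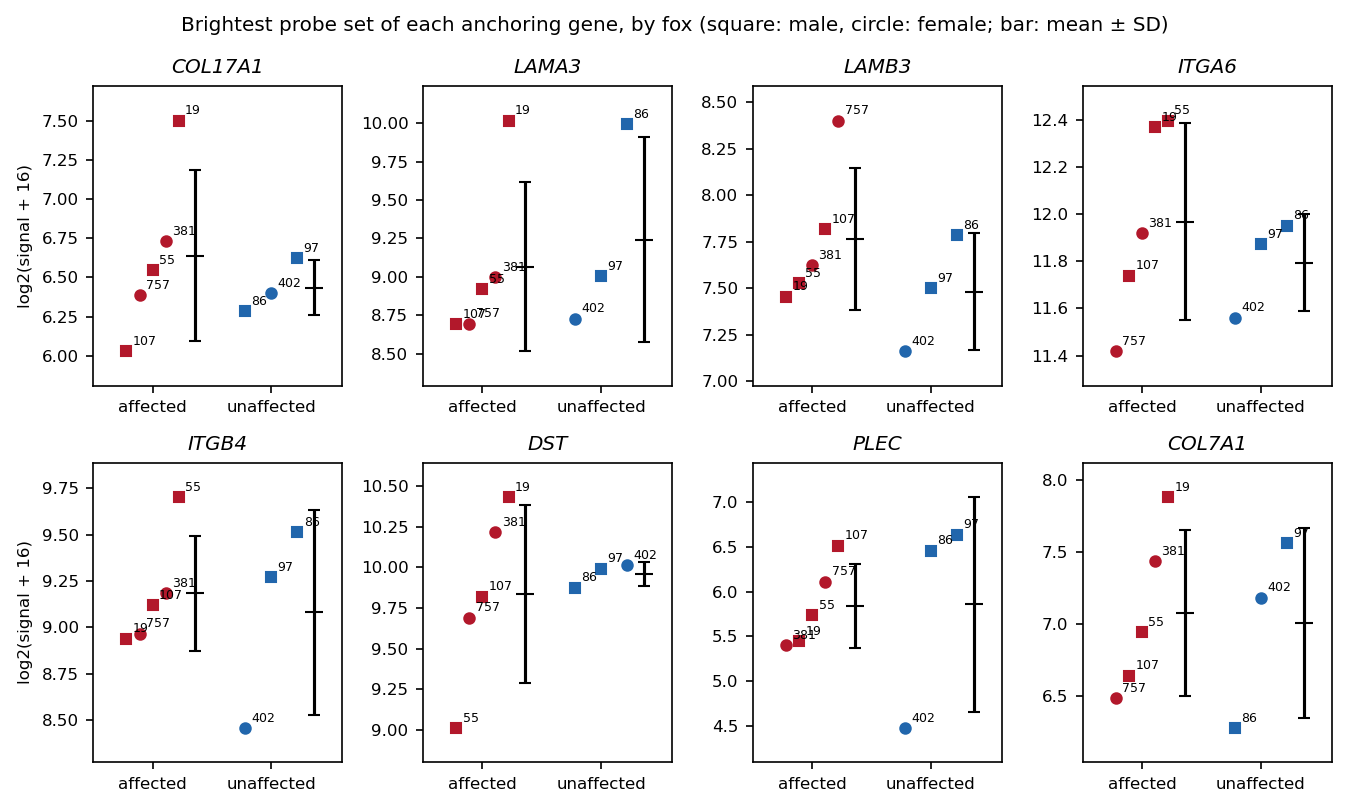
Each panel plots log2(signal + 16) of the brightest probe set of 1 gene in every fox, affected foxes left and unaffected foxes right, with squares for males, circles for females and a bar for the mean with its SD. The 2 groups overlap in every panel, and PLEC has 1 low point, unaffected fox 402 at a signal of 6.27.

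**Figure D2:**
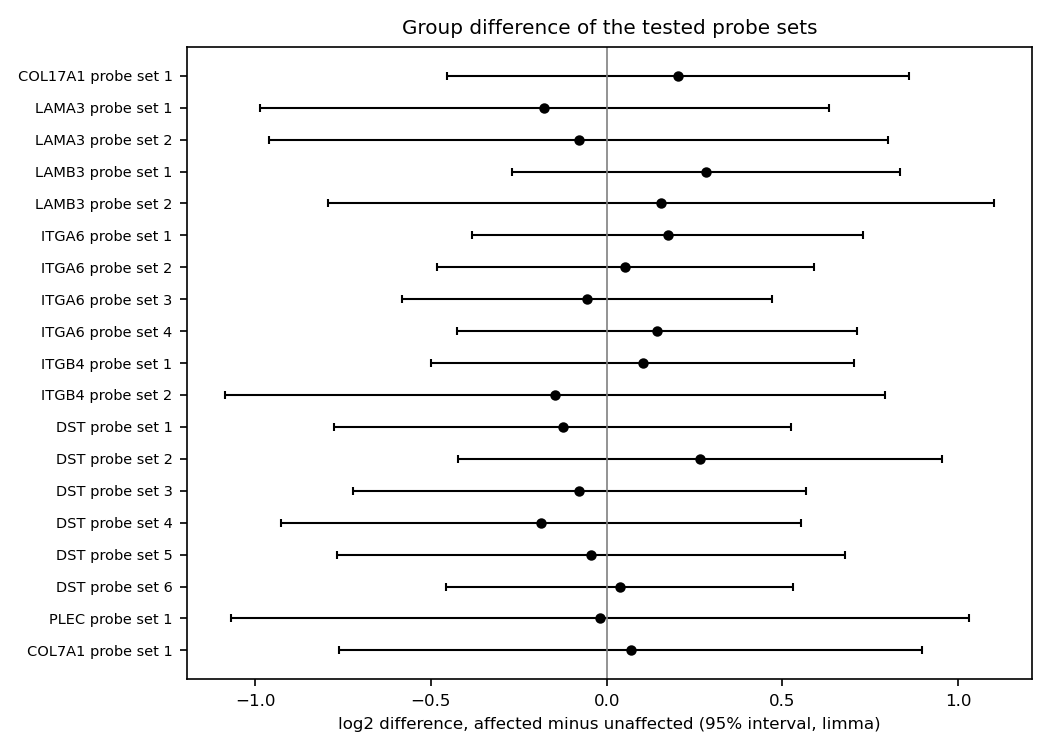
Points are limma's log2 differences, affected minus unaffected, for the 19 tested probe sets, and bars are 95% intervals. Every interval includes 0, and the points lie between -0.19 and 0.28.

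The integrin is the adhesion receptor of the junction. ITGA6, its alpha chain, had 4 probe sets, all tested. ITGA6 probe set 1 read 5287, 5384, 3403, 3857 and 2720.0 in affected foxes and 3947, 3734 and 3006 in unaffected foxes. The highest signals were those of foxes 55 and 19, and the lowest those of foxes 757 and 402, so each group had foxes at the low end. Means were 4130.5 ± 1173 in affected foxes (SD, n = 5), against 3562 ± 493 in unaffected foxes (SD, n = 3), with a difference of 0.17 ± 0.25 (95% interval -0.38 to 0.73).

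ITGA6 probe set 2 read 2866, 2539.6, 1947, 1889 and 1568 in affected foxes and 2587, 2022 and 1609.8 in unaffected foxes, a difference of 0.053 ± 0.24. It ordered the foxes much as the first one did, with foxes 757 and 402 again lowest. ITGA6 probe set 3 read 741, 479, 497, 512 and 476 in affected foxes and 725, 602 and 390.4 in unaffected foxes, a difference of -0.057 ± 0.24. Here affected fox 19 and unaffected fox 86 stood above the other 6. ITGA6 probe set 4 read 7.07 to 27.0 and was above background in 6 of 8 foxes (difference 0.14 ± 0.26).

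ITGB4 encodes the beta chain, whose long cytoplasmic tail binds plectin. ITGB4 probe set 1 read 475, 817, 540.3, 566 and 484 in affected foxes and 714, 602 and 336 in unaffected foxes. Affected fox 55 was highest and unaffected fox 402 lowest, and the difference was 0.10 ± 0.27. ITGB4 probe set 2 read 167, 489, 457, 317 and 313 in affected foxes and 511, 544 and 171 in unaffected foxes. Foxes 19 and 402, 1 of each group, were far below the other 6 on that probe set, and the difference was -0.15 ± 0.42. Without fox 402 it was -0.66, and its sign changed without fox 19, 86 or 97, to 0.13 at most.

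COL17A1, the transmembrane collagen known as an autoantigen of bullous pemphigoid, had 1 tested probe set. It read 165, 77.4, 49.3, 90.2 and 67.6 in affected foxes and 61.9, 82.6 and 68.4 in unaffected foxes. Fox 19 stood above all the others, and the other 4 affected foxes reached both below and above the unaffected ones. The means were 89.9 ± 44.5 in affected foxes (SD, n = 5), against 70.98 ± 10.6 in unaffected foxes (SD, n = 3), with a difference of 0.20 ± 0.29. Without fox 19 the difference was -0.013. The other COL17A1 probe set read 4.60 to 20.2, was above background in 4 of 8 foxes and was not tested.

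Dystonin and plectin are plakins, large linkers of the cytoplasmic plaque. DST also makes long neuronal and muscle forms, and the files do not say which form a probe set reads. Of its 10 probe sets, 6 were tested. DST probe set 1 read 1365, 501, 887, 1175 and 811 in affected foxes and 923, 1003 and 1017 in unaffected foxes. Fox 55 was the lowest and foxes 19 and 381 the highest, all 3 affected, so the affected range enclosed the unaffected one (difference -0.13 ± 0.29).

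DST probe set 2 read 888, 1364, 548, 1142 and 624 in affected foxes and 692, 909.8 and 577 in unaffected foxes, with a difference of 0.27 ± 0.31. On this probe set fox 55 was the highest of all. DST probe set 4, which had the lowest difference of all members, -0.19 ± 0.33, read 196, 89.7, 139, 281 and 95.9 in affected foxes and 140.2, 188 and 184 in unaffected foxes. Fox 55 was lowest there and fox 381 highest. The other 3 tested DST probe sets differed by -0.077 ± 0.29, -0.044 ± 0.32 and 0.037 ± 0.22. The 4 DST probe sets that were not tested read 0.819 to 24.1 and were above background in at most 2 foxes.

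PLEC had 1 tested probe set, which read 27.5, 37.2, 75.4, 26.2 and 53.2 in affected foxes and 71.96, 83.6 and 6.27 in unaffected foxes. Fox 402 was under the background of its array, while unaffected foxes 86 and 97 were among the highest 3. The means were 43.9 ± 20.6 in affected foxes (SD, n = 5), against 53.9 ± 41.7 in unaffected foxes (SD, n = 3), with a difference of -0.018 ± 0.47, the largest standard error among the 19. Without fox 402 the difference was -0.71, and without fox 97 it was 0.37. The other PLEC probe set read 2.86 to 14.4 and was above background in 1 fox.

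LAMA3 and LAMB3 encode the alpha and beta chains of the laminin that the integrin binds. LAMA3 probe set 1 read 1019.8, 469, 397, 496 and 399 in affected foxes and 1005, 497 and 408 in unaffected foxes. Affected fox 19 and unaffected fox 86 read well above the other 6, which lay between 397 and 497. The difference was -0.18 ± 0.36, and without fox 86 it was 0.20. LAMA3 probe set 2 read 450.4, 163, 121, 165 and 239 in affected foxes and 353, 153 and 189 in unaffected foxes, with the same 2 foxes highest and a difference of -0.08 ± 0.39. The remaining LAMA3 probe set read 0.742 to 8.84, at background in every fox, and was not tested.

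The largest of the 19 differences was that of a LAMB3 probe set, and it ran from 0.12 to 0.44 when single foxes were left out. LAMB3 probe set 1 read 159, 169, 209.6, 181 and 322 in affected foxes and 205, 165 and 127 in unaffected foxes. Affected fox 757 was highest and unaffected fox 402 lowest, and the groups overlapped between 159 and 205. The means were 208 ± 66.3 in affected foxes (SD, n = 5), against 166 ± 38.9 in unaffected foxes (SD, n = 3), with a difference of 0.28 ± 0.25 (95% interval -0.27 to 0.84, unadjusted p = 0.279, adjusted p = 0.9999 in limma). Without fox 757 it was 0.125, without fox 402 it was 0.123, and without fox 86 it was 0.44. LAMB3 probe set 2 read 94.7, 71.7, 189.6, 116 and 331 in affected foxes and 186, 119 and 84.7 in unaffected foxes. Its difference was 0.15 ± 0.42, which was -0.13 without fox 757 and 0.42 without fox 86. Foxes 757, 107 and 86 were the highest 3 on both LAMB3 probe sets.

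COL7A1, the collagen of the anchoring fibrils, had 1 tested probe set, with 220.0, 107, 83.9, 157 and 73.6 in affected foxes and 61.7, 173 and 129 in unaffected foxes. Fox 19 was highest and fox 86 lowest. The means were 128 ± 60.5 in affected foxes (SD, n = 5), against 122 ± 56.3 in unaffected foxes (SD, n = 3), with a difference of 0.068 ± 0.37. Without fox 86 it was -0.30, and without fox 97 it was 0.35. The other COL7A1 probe set read 2.70 to 14.4 and was above background in 2 foxes, both unaffected.

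**Figure D3:**
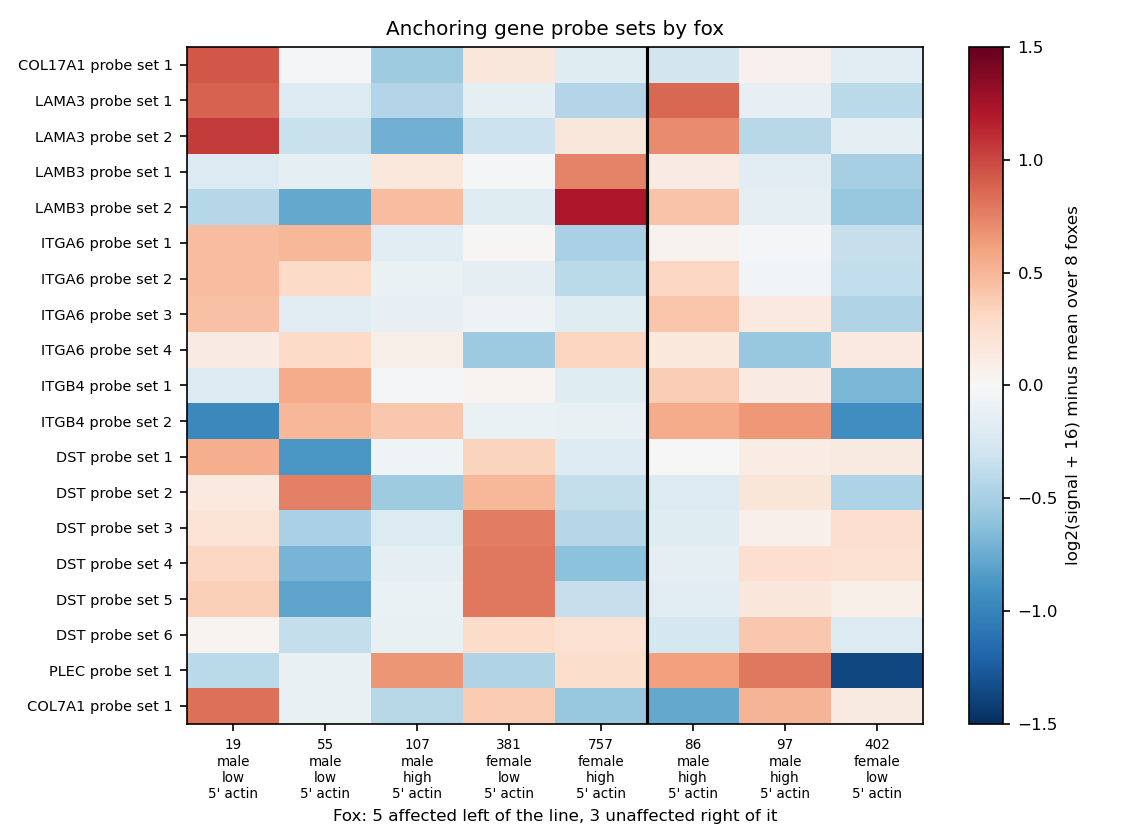
Rows are the 19 tested probe sets and columns the 8 foxes, affected left of the line, with colour for log2(signal + 16) minus the mean over the 8 foxes. LAMA3 is high in foxes 19 and 86, LAMB3 in fox 757, and DST probe sets 3, 4 and 5 in fox 381, while PLEC is low in fox 402.

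Several probe sets of 1 gene gave a check on whether these fox-to-fox patterns are read again by another probe set. The 24 pairs of tested probe sets within a gene were compared across the 8 foxes with two-sided exact permutation tests, and probe sets whose names end in _s_at can share probes with another transcript. Of the 24 Pearson correlations, 21 were above 0, 11 had an unadjusted p under 0.05 and 8 had an adjusted p under 0.05. Most of the 24 pairs were of DST, and pairs with a probe set in common are not independent. The share of such pairs over the other genes of the array was not computed. Whether probe sets of 1 gene read overlapping stretches of its transcript was not examined, so their agreement may not be an independent reading. The LAMB3 pair had r = 0.91 (exact p = 0.00171, adjusted p = 0.0103) and rho = 0.81 (exact p = 0.0218, adjusted p = 0.0523), and r was 0.87 without the 2 foxes farthest from the median. After the means of the sets with high and low 5' actin were removed, which is given below as r within the actin sets, it was also 0.87. Probe sets 1 and 2 of ITGA6 had r = 0.91 (exact p = 0.00253, adjusted p = 0.0121) and rho = 0.86 (exact p = 0.0107, adjusted p = 0.0321), and r was 0.89 without the 2 farthest foxes and 0.95 within the actin sets. The ITGB4 pair had r = 0.82 (exact p = 0.00970, adjusted p = 0.0291) and rho = 0.86 (exact p = 0.0107, adjusted p = 0.0321). Without its 2 farthest foxes r was 0.76 (exact p = 0.0708), and within the actin sets 0.89.

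The other 5 pairs that passed were all of DST. Probe sets 4 and 5 had r = 0.97 (exact p = 0.000149, adjusted p = 0.00327) and rho = 0.98 (exact p = 0.000397, adjusted p = 0.00952), with r = 0.94 without the 2 farthest foxes and 0.97 within the actin sets. DST probe set 2 did not follow them: its r with the other 5 DST probe sets ran from -0.25 to 0.18, with exact p of at least 0.576. With DST probe set 1 it was -0.25 over 8 foxes and 0.75 without the 2 foxes farthest from the median (exact p = 0.0819). For LAMA3, foxes 19 and 86 formed a separate cluster on both probe sets, so no pooled correlation is given; over the other 6 foxes r was -0.22 (exact p = 0.638).

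**Figure D4:**
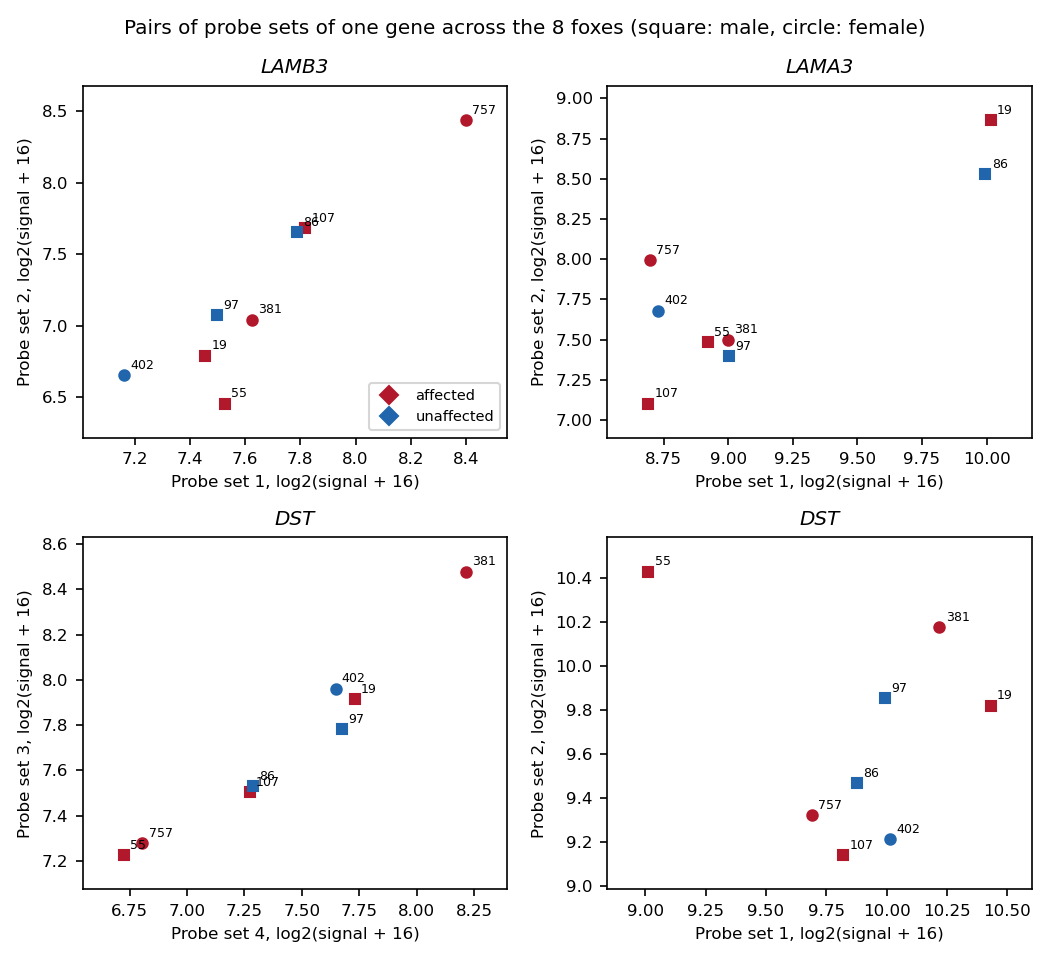
Each panel plots 2 probe sets of 1 gene against each other on log2(signal + 16), 1 point per fox, red for affected and blue for unaffected. The LAMB3 pair and DST probe sets 3 and 4 rise together, LAMA3 splits into foxes 19 and 86 and the other 6, and for DST probe sets 1 and 2 fox 55 lies apart from the rest.

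The genes were then compared with each other across the 8 foxes, with the brightest probe set of each, to ask whether partners in the junction varied together. Of 28 gene pairs, 15 had r above 0, 1 had an unadjusted p under 0.05 and 0 had an adjusted p under 0.05. That pair was the 2 collagens, COL17A1 and COL7A1, with r = 0.81 (exact p = 0.00578, adjusted p = 0.162) and rho = 0.88 (exact p = 0.00724). It was 0.84 without the 2 foxes farthest from the median and 0.71 within the actin sets. The integrin chains ITGA6 and ITGB4 had r = 0.56 (exact p = 0.143) and rho = 0.57 (exact p = 0.151), and r was 0.32 without the 2 farthest foxes and 0.77 within the actin sets. ITGB4 and its plaque partner PLEC had r = 0.62 (exact p = 0.103) and rho = 0.48 (exact p = 0.243), with 0.51 without the 2 farthest foxes and 0.86 within the actin sets. LAMB3 and COL7A1 had r = -0.63 (exact p = 0.0850) and rho = -0.74 (exact p = 0.0458, adjusted p = 0.423), with -0.85 without the 2 farthest foxes and -0.41 within the actin sets. The laminin chains LAMA3 and LAMB3 had r = -0.15 (exact p = 0.697) and rho = -0.45 (exact p = 0.267), with -0.37 without the 2 farthest foxes and -0.14 within the actin sets.

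Sex was the other labelled factor, and it was tested with disease status in the model, as male minus female. Of the 19 probe sets, 12 were higher and 7 lower in males, against 49.7% higher and 50.3% lower over all probe sets, and the median difference was 0.11. For 0 members the adjusted p was under 0.05, and 1 probe set in all, 0.00388%, passed, higher in males. ITGA6 came closest: ITGA6 probe set 2 read 1947 to 2866 in the 5 males and 1568 to 1889 in the 3 females, without overlap. The difference was 0.49 ± 0.20 (unadjusted p = 0.0332, adjusted p = 0.9999 in limma). An unadjusted p under 0.05 was met by 1 member and by 2.29% of all probe sets, and sexes that did not overlap by 1 member and by 2.36%. The other bright ITGA6 probe sets differed by 0.45 ± 0.22 and 0.38 ± 0.22, and those of ITGB4 by 0.45 ± 0.24 and 0.61 ± 0.40, each higher in mean in males but not past the unadjusted threshold.

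The difference of the disease effect between the sexes, males minus females, rests on fox 402, the only unaffected female. For 0 members, and 0% of all probe sets, was the adjusted p under 0.05. The estimate was above 0 for 4 of the 19 members and below 0 for 15, against 45.9% above and 54.1% below 0 over all probe sets. The count above 0 was 8 with median centring or without fox 55, 10 without fox 381 and 2 without fox 757. PLEC, whose signal of 6.27 in fox 402 lay under the background of 7.42, had the lowest, -1.93 ± 0.62 (unadjusted p = 0.0141, adjusted p = 0.99995 in limma), and was the 1 member with an unadjusted p under 0.05, against 2.48% of all probe sets. Among males alone 6 of the 19 members had a higher mean in affected foxes (42.4% of all probe sets), and among females alone 14 of 19 (48.8%). The size of the PLEC estimate depends on the offset through that reading: it was -3.25 with an offset of 1 and -0.93 with an offset of 64. Among males alone the PLEC difference was -0.65. The LAMB3 probe sets gave -0.89 ± 0.49 and -1.48 ± 0.83, and the ITGB4 probe sets -0.76 ± 0.48 and -1.45 ± 0.72.

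**Figure D5:**
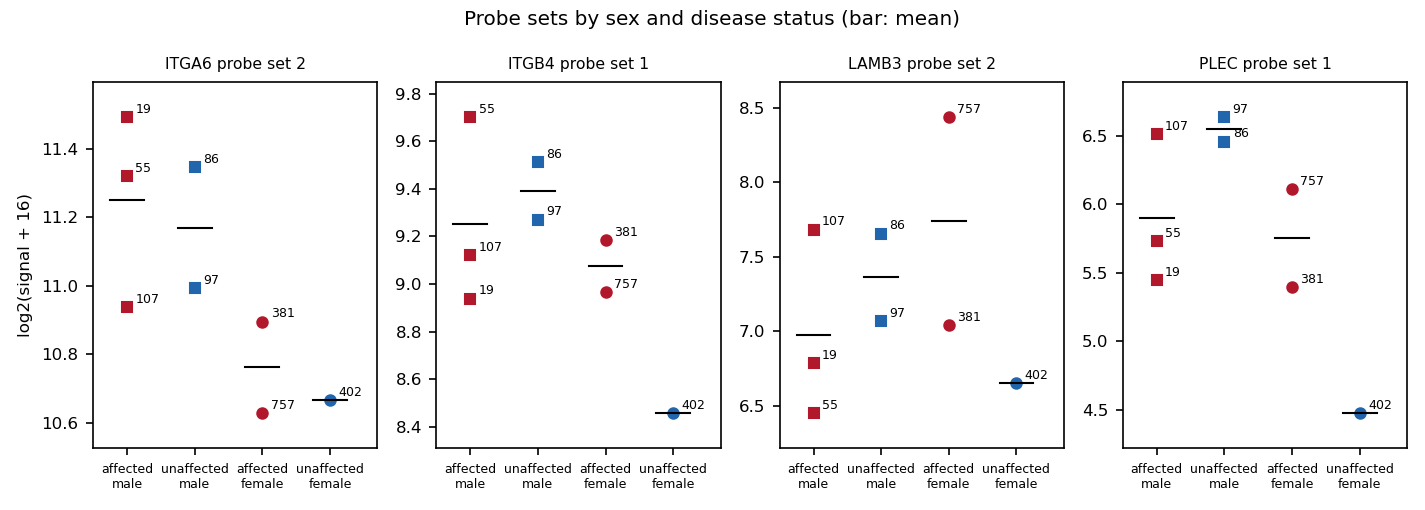
Points are log2(signal + 16) of 4 probe sets in each fox, by sex and disease status, affected left of unaffected within each sex, and bars are means. ITGA6 is higher in every male than in every female, and the unaffected female group is fox 402 alone.

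The actin sets of arrays did not overlap for 2 of the 19 members, against 9.79% of all probe sets, so the share among members was near that of the array. LAMB3 probe set 2 read 119 to 331 in foxes with high 5' actin and 71.7 to 116 in foxes with low 5' actin. PLEC read 53.2 to 83.6 in the high set and 6.27 to 37.2 in the low set. Compared within the high set (2 affected, 2 unaffected), 3 of 19 members had a higher mean in affected foxes, against 42.3% of all probe sets. Within the low set (3 affected, 1 unaffected), 15 of 19 did, against 48.9%. The sign was the same in both sets for 5 of the 19. Both LAMB3 probe sets were higher in affected foxes within each set, by 0.47 and 0.70 in the high set and by 0.38 and 0.11 in the low set. Among males alone the means of both were lower in affected foxes (-0.042 and -0.39), and among the 3 females they were higher (0.85 and 1.09). With the ratio of 5' to 3' actin as a covariate the LAMB3 differences were 0.51 ± 0.19 and 0.64 ± 0.23, the 2 members with an unadjusted p under 0.05, against 2.44% of all probe sets (adjusted p = 0.9997 in limma). With the actin set as a block they were 0.43 ± 0.19 and 0.44 ± 0.26, and 1 member, LAMB3 probe set 1, had an unadjusted p under 0.05, against 2.7% of all probe sets (adjusted p = 0.9989 in limma). The low set again rests on fox 402 alone for its unaffected side.

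Other genes of the anchoring apparatus and of cell adhesion to the basement membrane were read from a list of 36, of which 28 were tested. Of the 28, 15 had a higher and 13 a lower mean in affected foxes, against 43.5% higher and 56.5% lower over all probe sets tested. Their median difference was 0.0069, and 0 had an adjusted p under 0.05 in limma. Without fox 402, 8 of the 28 had a higher mean. FERMT1, the kindlin whose loss causes skin blistering in humans, averaged 79.1 ± 13.7 in affected foxes (SD, n = 5), against 116 ± 27.6 in unaffected foxes (SD, n = 3). Its difference of -0.46 ± 0.20 was the 1 of the 28 with an unadjusted p under 0.05 (adjusted p = 0.9999 in limma). That threshold was met by 2.69% of all probe sets tested. With each fox left out in turn the FERMT1 difference ran from -0.65 to -0.36, and in 6 of the 8 fits the unadjusted p was no longer under 0.05. TGFBI, a secreted matrix protein that binds integrins, averaged 878 ± 387 in affected and 1254 ± 705 in unaffected foxes, a difference of -0.42 ± 0.45, which was -0.023 without fox 97. FRAS1, of the basement membrane of the developing skin, differed by 0.42 ± 0.43, by 0.19 without fox 19 and 0.77 without fox 97, and by -0.45 in the high and 1.21 in the low actin set. EXPH5, an effector of vesicle transport in keratinocytes, differed by 0.36 ± 0.41, or by -0.16 without fox 86.

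Markers of the cells in these pieces were read beside the members. Of 7 basal keratinocyte markers other than members, 4 were annotated and tested (TP63, ITGA3, SFN and TRIM29), and KRT5 and KRT14 are not named here. All 4 had a lower mean in affected foxes, against 56.5% of all probe sets tested, and none was past the unadjusted threshold. Without fox 97 the differences of SFN (-0.032) and TRIM29 (-0.38) were 0.37 and 0.28. Those of TP63 (-0.92) and ITGA3 (-0.35) were below 0 with each fox left out, from -1.17 to -0.50 and from -0.47 to -0.16. TP63 and ITGA3 were each at background in 1 affected fox. The summed signal of the 4 markers, most of it SFN, ran from 3733 to 6358 in affected foxes and from 3323 to 9065 in unaffected foxes. The 12 tested suprabasal and cornified markers summed to 25103 to 46964 in affected foxes. In unaffected foxes they summed to 10125 in fox 86, 45940 in fox 97 and 43659 in fox 402. Of the 12, 10 were higher in mean in affected foxes, against 43.5% of all probe sets tested. Among these 10, KRT76 (1029), IVL (1173), DSG1 (814), TGM1 (429) and TGM3 (77.7) were each lowest of all 8 foxes in unaffected fox 86. The count without fox 86 was not computed. KRT13, a keratin of mucosal epithelium, read 6515 to 12982 over all 8 foxes. KRT1 was at background in 3 affected and 2 unaffected foxes, and KRT1 and KRT10 were highest in fox 19, at 1042 and 5124. Fox 19 was also the fox with the highest COL17A1, COL7A1 and LAMA3, and the part of its keratins in those values was not tested directly. The group comparison was also run with a score as a covariate, the mean of the centred log2 values of the suprabasal markers. The difference was then 0.018 ± 0.24 for COL17A1 (0.20 without the score) and -0.22 ± 0.39 for LAMA3 probe set 1 (-0.18 without the score). For LAMB3 probe set 1 it was 0.44 ± 0.20 (0.28 without the score). With a score of the 4 basal markers as the covariate, the difference was 0.35 ± 0.33 for COL17A1. It was then -0.21 ± 0.43 for LAMA3 probe set 1 and 0.25 ± 0.29 for LAMB3 probe set 1. Junctional epithelium markers (3 tested) summed to 1115 to 6438 in affected foxes, against 1098 to 5494 in unaffected foxes. Leukocyte markers (6 tested) summed, mostly through LYZ, to 1339 to 4125 in affected foxes, against 1252 to 4507 in unaffected foxes. All 6 had a higher mean in affected foxes, against 43.5% of all probe sets tested, but without fox 97 the differences of PTPRC, CD3E, CD79A and LYZ were below 0. CD68, a macrophage marker, averaged 344 ± 38.0 in affected foxes (SD, n = 5), against 179 ± 109 in unaffected foxes (SD, n = 3). It differed by 1.07 ± 0.35. Of the 6 leukocyte markers it was the 1 with an unadjusted p under 0.05, against 2.69% of all probe sets tested (adjusted p = 0.9999 in limma). With single foxes left out the difference ran from 0.55, without fox 97, to 1.47, without fox 86. The unadjusted p of limma was under 0.05 in all 8 of these fits. The part of CD68 in the members' values was not tested. Endothelial markers (6 tested) summed to 757 to 1259 in affected foxes, against 717 to 1595 in unaffected foxes. Fibroblast markers (7 tested) summed to 10119 to 27317 in affected foxes, against 8131 to 30553 in unaffected foxes. Of 9 skeletal muscle markers, relevant to PLEC and DST, 1 was tested, ACTA1, which read 19.9 to 67.3 in affected foxes, against 2.12 to 76.0 in unaffected foxes.

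The mean profile of the members over the 8 foxes was highest in fox 19, affected, and lowest in fox 402, unaffected. Among 10816 other genes, those most like it by Pearson r over 8 foxes were TTC9C (0.94), TTLL5 (0.92), SSBP3 (0.91), MME (0.89) and ATF6 (0.87). These are the highest of a search through all genes and describe these 8 arrays only.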

How the data were processed

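Gingival RNA of 8 foxes was measured on 1 array each. The deposited table holds 1 linear intensity (signal) per probe set, made by the authors with MAS5 (per the submitters' processing notes; its version, scaling target and background method are not stated there). The table held 43035 probe sets. The analysis dropped 111 control probe sets and 40% of the rest, those with the lowest mean log2(signal + 16) over the 8 arrays, which left 25754. The offset of 16 shrinks differences of dim probe sets. Groups were compared with limma 3.58.1 in R 4.3.3 (lmFit, eBayes, Benjamini-Hochberg, threshold 0.05) with disease status alone as the model, then sex with status as a covariate, then their interaction. Correlations used exact permutation of pairings under Python 3.11.15, with ranks from SciPy 1.17.1. Background was the 95th percentile of the bacterial probe sets of each array. The number of arrays limits the precision.

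All probe sets of the 8 genes are reported, and from each list at most 4 genes, those with the 2 highest and 2 lowest differences; marker genes beyond these were named after their values were seen. Symbols come from the platform annotation. All 8 symbols occur in the fox RefSeq annotation VulVul3. The members and lists were chosen with earlier results of these data known. Alternatives covered the offset, normalization, filter, covariates, array weights, prior variance, probe sets per gene, each sex alone and each fox left out. The fits were checked on simulated data.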

Additional observations from a re-analysis of the deposited data

Results flagged for a closer look

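In 3 of the 19 tested probe sets, 1 affected fox lay farther from the other 4 than Dixon's critical value of 0.71 allows, as the gap to the nearest fox divided by the range of the group, both on the log2(signal + 16) scale. Signals below are linear, and the ratios are on that log2 scale. LAMA3 probe set 1 read 1019.8 in fox 19, against 397 to 496 in the other 4 affected foxes, a ratio of 0.767. ITGA6 probe set 3 read 741 in fox 19, against 476 to 512, a ratio of 0.833. ITGA6 probe set 4 read 7.49 in fox 381, below the background of its array, against 20.4 to 27.0, a ratio of 0.726. Chance alone flags about 1 in 20 groups.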

How the results depend on the processing

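Between affected and unaffected foxes, 0 probe sets had an adjusted p under 0.05 in limma under each alternative that was run. The direction of single members was not stable: 15 of the 19 changed sign in at least 1 fit without 1 fox and 17 under at least 1 other alternative. The 4 with no sign change when a fox was left out were LAMB3 probe set 1, ITGA6 probe set 1, DST probe set 2 and DST probe set 4. The count of members with a higher mean was 10; it was 6 in males only and 3 in foxes with high 5' actin only, and 7 to 13 with 1 fox left out, 7 without fox 402. Of the 28 listed partners, 15 were higher, 9 in males only and 8 without fox 402. For sex, 1 probe set of all passed the threshold, and 2 without fox 55. For the disease effect in males minus that in females, 4 members were above 0, 8 with median centring and 2 to 10 with 1 fox left out: 8 without fox 55, 10 without fox 381 and 2 without fox 757. Without fox 402 that difference could not be fitted. Members with an unadjusted p under 0.05 in limma numbered 0, against 2.69% of all probe sets. They numbered 2 with the actin ratio as a covariate (2.44% of all) and 1 with the actin set as a block (2.7%), all LAMB3. In females only and in foxes with low 5' actin only, fox 402 was the only unaffected animal, so only sizes are given. There 14 and 15 of the 19 members were higher. PLEC differed by 1.28 in females only and 1.05 in the low set, and DST probe set 2 by 0.93 in the low set. The causes were not tested. The fits within the sets of 5' actin were added after seeing the data. No paired analysis was possible because each fox number belongs to 1 animal of 1 group.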
